A study of Mus musculus with 23 samples.

Results

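The forkhead family was followed in mouse embryonic stem cells (ESCs) in which KDM2B can be stripped of the domain that binds DNA. Its members were taken as all gene names made of Fox, a letter from a to s and a number, which gave 44 genes of the 23180 gene names used. Expression had been measured by polyA+ RNA-seq in KDM2Bfl/fl ES cells, in which an exon encoding most of the KDM2B ZF-CxxC domain is flanked by loxP sites on both alleles and a tamoxifen-inducible Cre recombinase is stably expressed. In 3 samples labelled untreated this exon is left in place, and in 3 samples labelled as treated the cells had received 4-hydroxy tamoxifen for 72 hr, at 800 nM by the sample labels and at 800 µM by the text of the series. Both groups share the floxed alleles, the Cre transgene, culture on inactivated feeder fibroblasts before the experiment and a night of settling without feeders. Tamoxifen itself, Cre activity and loss of the ZF-CxxC domain cannot be told apart in this comparison. The labels name 1 cell line and a range of passages, and the methods call the samples biological triplicates. By the paper, the floxed allele was made in MS12 ESCs, and the KDM2Bfl/fl ES lines with the Cre came from mouse matings.

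Sample labels set the groups used here. File names contradict them for all 6 samples, and if the names were right every difference below keeps its size and p and changes its sign. Kdm2b itself, counted over the whole gene, had 26.95, 21.5 and 27.7 FPKM in untreated replicates 1, 2 and 3 and 19.9, 21.9 and 25.04 FPKM in tamoxifen replicates 1, 2 and 3 (adjusted p = 0.999 from limma, 0.305 with the replicate number as a block). A whole-gene value does not resolve the floxed exon and so checks neither reading. FPKM gives the fragments on a gene relative to its length and to all mapped fragments. The tables hold no read counts, but the steps of single fragments in 764 low genes put the depth of the other samples at 0.654 to 0.955 of that of untreated replicate 1. Between 11571 and 11980 rows per sample had at least 1 FPKM. The ESC markers were present at high levels, with a summed FPKM over 8 genes of 2850 to 4020 in the untreated and 3164 to 5576 in the tamoxifen samples. Dppa5a weighs most in this sum, at 1401 to 2221 FPKM in the untreated and 1582 to 3534 FPKM in the tamoxifen samples. The lowest of the 8, Zfp42, had 22.7 to 42.2 FPKM over all samples.

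Forkhead proteins share a winged-helix DNA-binding domain and recognise closely related sequences, and individual members act as pioneer factors, as repressors or as switches controlled by signalling. In ESCs, FOXH1 carries SMAD proteins to Nodal targets, FOXD3 guards the undifferentiated state, FOXO factors answer to insulin and growth factor signalling and FOXM1 drives the late cell cycle, whereas many other members are used in later tissues and carry CpG islands that polycomb proteins bind in ESCs. The ZF-CxxC domain of KDM2B recognises nonmethylated CpG dinucleotides, and through it the PCGF1/PRC1 complex is brought to CpG islands.

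Because the deleted domain reads nonmethylated CpG dinucleotides, the RefSeq promoter table (GRCm38.p6, 300 bases from 250 before to 50 after the start of a gene) was searched for the family. Sequence alone does not show methylation. It matched 28 of the 44 genes, taking the outermost start of each. Their windows held 3 to 59 CpG dinucleotides, with a median of 22 against a median of 7 over the 27018 genes of the table. CpG-rich windows were those with 0.6 or more of the CpG dinucleotides their base composition predicts and 55% or more G and C, and 17 of the 28 genes, or 60.7%, met this against 30.7% of all genes in the table. Of the matched members expressed above the filter described below, 13 of 16 were CpG-rich, and of those below it 4 of 12. The matching shares of all genes above and below the filter were not computed, so this split is not read as a trait of the family. The 250 bases before the start are shown for Foxl2 and Foxp4, which were lower in the tamoxifen samples with the replicate block, for Foxa1, which was low throughout and whose groups did not overlap, and for Foxd3, whose level hardly differed between the groups. Foxe1, also lower with the block, was not among the 28 matched genes. Capitals mark CpG dinucleotides.
Foxl2 promoter, chr9:98955357-98955606, plus strand: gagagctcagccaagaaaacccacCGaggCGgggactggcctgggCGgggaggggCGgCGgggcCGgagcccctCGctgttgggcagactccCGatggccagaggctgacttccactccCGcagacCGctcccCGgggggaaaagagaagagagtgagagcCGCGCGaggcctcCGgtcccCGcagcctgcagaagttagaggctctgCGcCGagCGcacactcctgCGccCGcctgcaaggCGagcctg
Foxp4 promoter, chr17:47924633-47924882, minus strand: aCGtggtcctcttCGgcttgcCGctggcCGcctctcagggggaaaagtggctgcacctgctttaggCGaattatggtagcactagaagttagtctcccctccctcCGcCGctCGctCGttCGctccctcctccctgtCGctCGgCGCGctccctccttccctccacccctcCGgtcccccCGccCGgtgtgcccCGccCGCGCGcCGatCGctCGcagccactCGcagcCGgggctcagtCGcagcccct
Foxa1 promoter, chr12:57546112-57546361, minus strand: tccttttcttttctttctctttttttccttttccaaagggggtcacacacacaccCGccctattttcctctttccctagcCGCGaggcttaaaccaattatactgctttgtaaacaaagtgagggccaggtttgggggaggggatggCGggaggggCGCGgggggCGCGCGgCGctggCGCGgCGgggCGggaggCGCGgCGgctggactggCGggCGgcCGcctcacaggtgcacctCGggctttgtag
Foxd3 promoter, chr4:99656049-99656298, plus strand: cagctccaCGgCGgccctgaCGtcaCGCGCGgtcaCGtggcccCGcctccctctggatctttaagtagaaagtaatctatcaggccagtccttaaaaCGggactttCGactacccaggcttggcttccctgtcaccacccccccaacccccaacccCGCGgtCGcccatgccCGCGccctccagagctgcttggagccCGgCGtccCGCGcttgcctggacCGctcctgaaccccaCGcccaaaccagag
These stretches hold 22, 27, 21 and 21 CpG dinucleotides in the order given. The genes were chosen by their expression values, and neither methylation nor KDM2B binding was examined here. A link between CpG number and the expression differences was not tested. The heptamer TGTTTAC, a core forkhead recognition sequence, or its reverse complement GTAAACA occurred in 1 of the 28 windows, that of Foxa1, and in 3.52% of the windows of all genes. Both strands were searched, and a match describes letters only.

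The family spanned a wide range of expression. On the FPKM scale, 7 members had a mean of at least 10 over the 6 samples, 9 had 2 to 10, 9 had 0.5 to 2, 9 had 0.1 to 0.5 and 10 were under 0.1. The 7 highest made up between 64.2% and 73.6% of the summed FPKM of the family in each sample. Foxh1 led with 37.6, 47.2 and 30.04 FPKM in untreated replicates 1, 2 and 3 and 25.97, 35.2 and 26.3 FPKM in tamoxifen replicates 1, 2 and 3, a mean level above that of 89.2% of all genes. It was followed by Foxk2, Foxo4, Foxm1, Foxp4, Foxp1 and Foxn2, with means of 22.7, 21.4, 17.003, 13.4, 13.3 and 10.6 FPKM. Foxd3, the member best known for keeping ESCs undifferentiated, had a mean of only 5.52 FPKM. At the other end Foxp3, the factor of regulatory T cells, was listed at 0 in all 6 samples, and Foxi1, Foxi2 and Foxn1, genes of the inner ear, ectoderm and thymus, reached at most 0.0262, 0.0195 and 0.0368 FPKM.

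**Figure D1:**
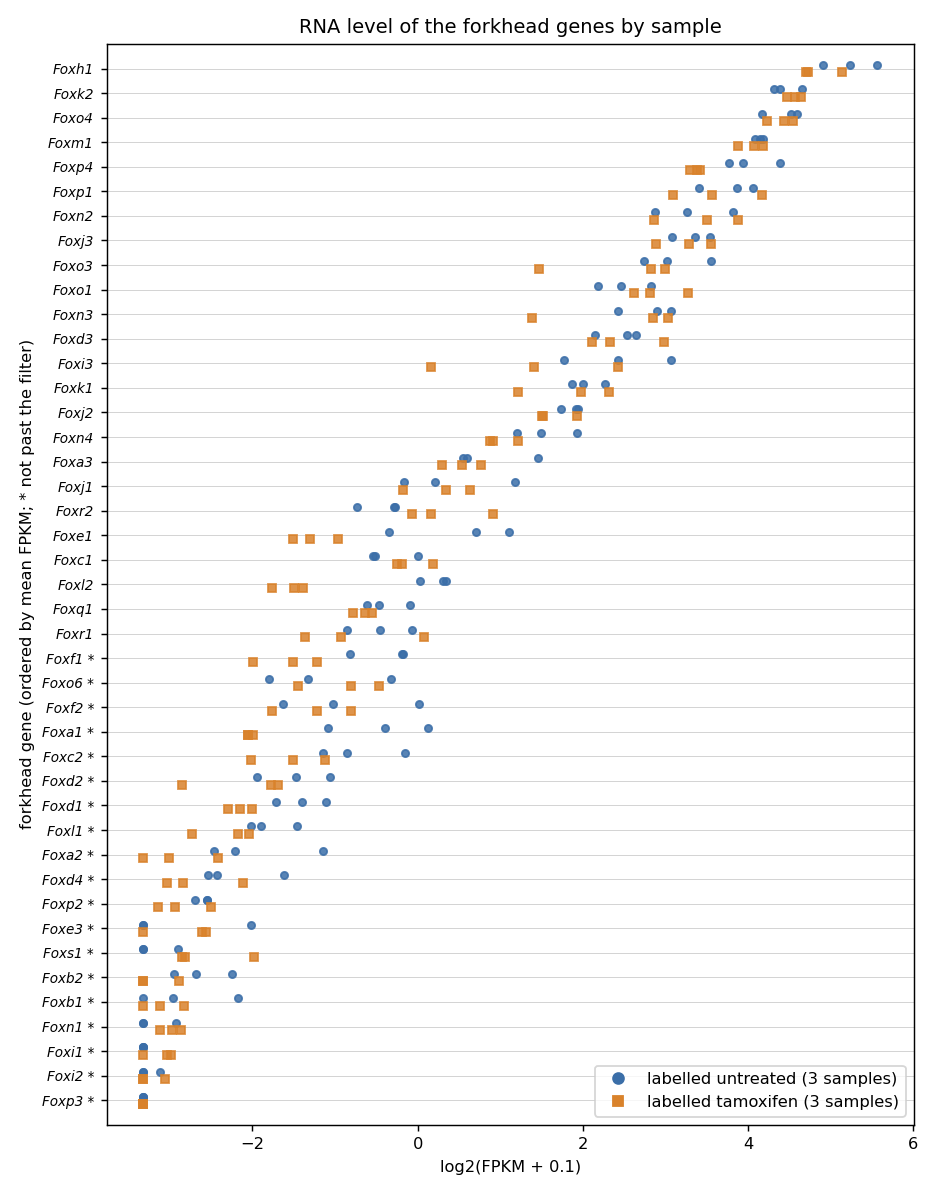
Level of 43 of the forkhead genes in each sample, as log2(FPKM + 0.1), with genes ordered by mean FPKM; circles are the 3 samples labelled untreated and squares the 3 labelled tamoxifen, and an asterisk marks the 19 genes not past the filter. Foxh1 is highest, and the squares of Foxl2, Foxe1, Foxp4, Foxa1, Foxf1, Foxd1 and Foxl1 lie wholly to the left of the circles.

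Tamoxifen-labelled and untreated samples were compared on log2(FPKM + 0.1) with limma over the 12964 genes with at least 0.5 FPKM in at least 3 of the 6 samples, and p-values were adjusted by Benjamini-Hochberg over all of them. The added 0.1 makes fold changes of low genes too small. Of the 44 forkhead genes, 25 passed the filter and 19 did not. Without a block 0 of the 25 passed an adjusted p of 0.05, where 0.0231% of all genes were called higher and 0.00771% lower (0.0309% in either direction), and 3 members had an unadjusted p under 0.05 against 4.82% of all genes. Same-numbered samples of the groups departed from their means in the same direction across genes, so the number was also fitted as a block, which lowered the standard error of all 25 members, from a median of 0.333 to 0.167. With the block 3 of the 25, Foxl2, Foxe1 and Foxp4, were lower and 0 higher in the tamoxifen samples (limma, Benjamini-Hochberg adjustment), where 6.33% of all genes were called lower and 4.5% higher (10.8% in either direction). Foxl2 and Foxe1 passed the filter only through the untreated group, in which they were high, so their place in this count is a description. In the block fit with no filter, limma adjusted p for Foxl2, Foxe1 and Foxp4 was 0.173, 0.216 and 0.242. At an unadjusted p under 0.05 the block fit held 10 of the 25, against 30.1% of all genes. Against this background nothing particular to the family is read from the counts.

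Foxl2, the gene of ovarian granulosa cells, occupies bases 98856026 to 98858545 of chromosome 9 (mm9, plus strand). Its FPKM was 0.923, 1.13 and 1.16 in untreated replicates 1, 2 and 3 and 0.281, 0.254 and 0.195 in tamoxifen replicates 1, 2 and 3. All tamoxifen samples lay below all untreated samples, and the replicates within each group were close to each other. The group means were 1.07 ± 0.131 and 0.243 ± 0.0442 FPKM (SD, n = 3), so the untreated mean was 4.41 times the tamoxifen mean, a difference of −1.78 on the log2 scale with a standard error of 0.335 and a limma adjusted p of 0.324 without the block, and of 0.259 and 0.00944 with it. The authors' own interval around each FPKM, which covers fragment counting and assignment within a library, was separate between the groups in 3 of 3 replicate numbers. The log2 differences between same-numbered samples 1, 2 and 3 were −1.42, −1.80 and −2.10. The locus of Foxl2os, a transcript named for lying opposite Foxl2, is 296 bp away and does not overlap it, and whether strand was used in counting is not stated. Foxl2os had 0.742, 0.996 and 0.790 FPKM in untreated and 0.0264, 0.179 and 0.207 FPKM in tamoxifen replicates 1, 2 and 3, again with no overlap of the groups. Both transcripts were thus lower in every tamoxifen sample than in any untreated sample. For Foxl2os the log2 fold change was −2.08 (limma adjusted p = 0.382, and 0.0112 with the block). No tamoxifen sample reached 0.5 FPKM of Foxl2os, so it passed the filter only through the untreated group.

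Foxe1, a regulator of thyroid development, occupies bases 46357066 to 46358181 of chromosome 4 (mm9, plus strand). It had 2.06, 1.52 and 0.689 FPKM in untreated replicates 1, 2 and 3 and 0.305, 0.414 and 0.250 FPKM in tamoxifen replicates 1, 2 and 3. The groups did not overlap, although untreated replicate 3 was well below the other untreated samples. On the log2 scale it differed by −1.75, with a standard error of 0.439 and a limma adjusted p of 0.428 without the block and of 0.287 and 0.0124 with it, and by −2.41, −1.66 and −1.17 between the samples numbered 1, 2 and 3. The authors' intervals were separate in 2 of 3 replicate numbers and overlapped in replicate 3. Neither Foxl2 nor Foxe1 reached 0.5 FPKM in any tamoxifen sample, so both passed the filter only through the untreated group.

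Foxp4, which encodes a repressor that pairs with the other FOXP proteins, was the 1 abundant member among the 3 and occupies bases 48004082 to 48061581 of chromosome 17 (mm9, minus strand). It reached 20.8, 13.6 and 15.2 FPKM in untreated replicates 1, 2 and 3 and 10.6, 10.3 and 9.77 FPKM in tamoxifen replicates 1, 2 and 3. All untreated samples were higher than all tamoxifen samples, and the tamoxifen samples were nearly equal. Means of 16.5 ± 3.82 and 10.2 ± 0.401 FPKM (SD, n = 3) gave a log2 difference of −0.67, with a standard error of 0.228 and a limma adjusted p of 0.747 without the block and of 0.13 and 0.0212 with it. The differences within replicate numbers 1, 2 and 3 were −0.98, −0.39 and −0.63, and the authors' intervals were separate in 3 of 3. Its relative Foxp1, which has an ESC splice form that favours pluripotency, had 10.5, 14.5 and 16.6 FPKM in untreated and 8.44, 11.7 and 17.9 FPKM in tamoxifen replicates 1, 2 and 3, with groups that overlapped (log2 fold change −0.17, limma adjusted p = 0.374 with the block). Foxp2, a gene of the developing brain, stayed between 0.0135 and 0.0771 FPKM. The 3 calls of the block fit depended on replicate 2. Without both of its samples 0 members passed, and over all genes 38 were higher and 49 lower. Without replicate 1, 4 members were lower (Foxi3 besides these 3) and 2 higher, Foxo1 and Foxr2, and without replicate 3 the count was 3 lower. With the block and TPM scaling, which moved the median over all genes from −0.02 to 0.08, Foxl2, Foxe1 and Foxi3 were called and Foxp4 was not (limma adjusted p = 0.101).

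**Figure D2:**
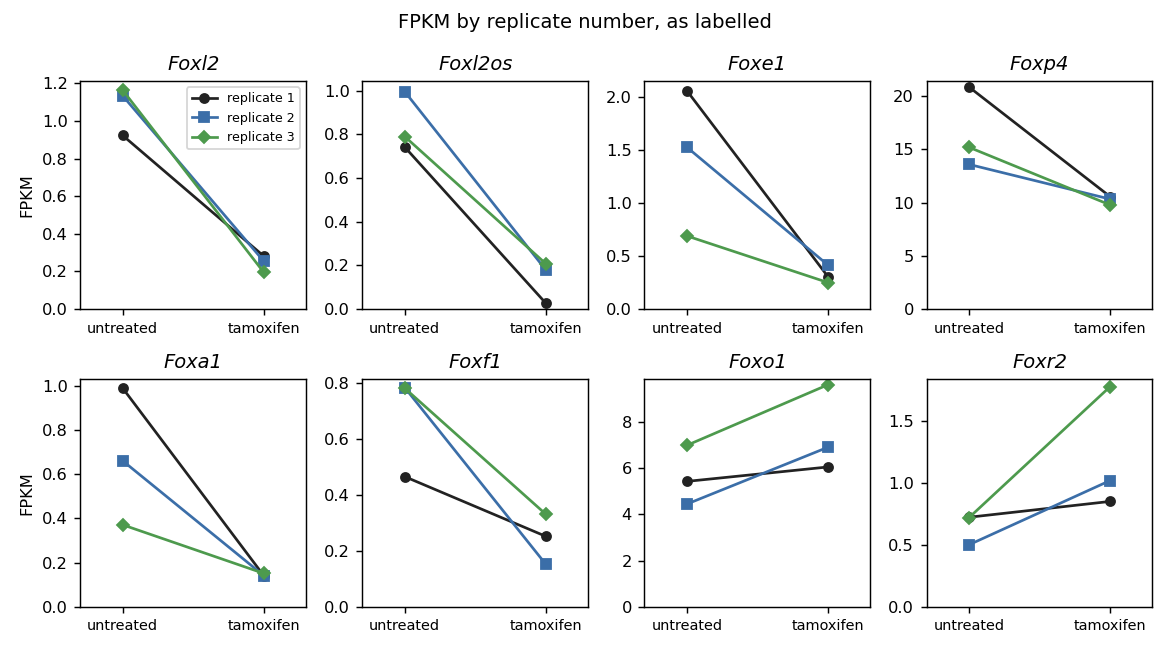
FPKM of 8 genes in each sample, with lines joining samples of the same replicate number from the label untreated to the label tamoxifen; each vertical axis starts at 0. Every line of Foxl2, Foxl2os, Foxe1, Foxp4, Foxa1 and Foxf1 runs down and every line of Foxo1 and Foxr2 runs up.

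Among the members that answer to signals, Foxh1 was lower in the tamoxifen sample of every replicate number, with a log2 difference of −0.38 (limma adjusted p = 0.999, and 0.054 with the block). It did not pass the threshold, its groups overlapped, and each of its 6 values lay above the upper end of the interval the authors give for it, the 1 member of which this was true. The FOXO genes went different ways. Foxo1 had 5.42, 4.44 and 6.98 FPKM in untreated and 6.05, 6.90 and 9.60 FPKM in tamoxifen replicates 1, 2 and 3, a log2 fold change of 0.41 (limma adjusted p = 0.0843 with the block). Foxo3, the FOXO gene linked to stress resistance and to the survival of quiescent stem cells, had 8.01, 6.57 and 11.7 FPKM against 2.67, 7.01 and 7.89 FPKM in the same order, a log2 fold change of −0.67 that rested mainly on tamoxifen replicate 1 (limma adjusted p = 0.139 with the block). Without that sample it was −0.19. Foxo4, the most abundant FOXO gene, had means of 21.6 ± 3.21 and 21.2 ± 2.34 FPKM (SD, n = 3). Foxo6 was below the filter, at 0.186 to 0.698 FPKM. Foxm1, the driver of genes for mitosis, had means of 17.5 ± 0.564 and 16.5 ± 1.75 FPKM, a log2 fold change of −0.09 whose sign turned to 0.01 under TPM scaling.

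Among the broadly expressed members with roles in chromatin and the cell cycle, the difference between the group means was smaller than the larger of the 2 SDs for each of 6 genes. Foxk2, which binds the BAP1 and SIN3 complexes, had means of 21.9 ± 2.85 and 23.5 ± 1.33 FPKM in untreated and tamoxifen samples (SD, n = 3). Its paralog Foxk1 had 4.05 ± 0.594 and 3.65 ± 1.33 FPKM. Foxn2 had 10.3 ± 3.46 and 10.99 ± 3.72 FPKM, and Foxn3, linked to the DNA damage checkpoint, had 6.97 ± 1.55 and 5.91 ± 2.98 FPKM. Foxj3 had 10.003 ± 1.59 and 9.53 ± 2.19 FPKM, and Foxj2 had 3.55 ± 0.292 and 3.07 ± 0.545 FPKM. With the block, limma adjusted p over these 6 genes ran from 0.252 for Foxn3 to 0.632 for Foxj3, and Foxd3, at 5.39 ± 0.942 and 5.65 ± 1.88 FPKM, had 0.896.

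The other members past the filter described here are genes of later tissues that were expressed at lower levels. Foxi3, a gene of the ectodermal placodes, had 5.29, 3.32 and 8.30 FPKM in untreated and 1.02, 2.56 and 5.28 FPKM in tamoxifen replicates 1, 2 and 3. It was lower in the tamoxifen sample of each replicate number, with groups that overlapped and a log2 difference of −1.09 (limma adjusted p = 0.999, and 0.0722 with the block). Its call depended on the processing, since it passed in 4 of 11 alternatives to the block fit, with limma adjusted p from 0.00311 under TPM scaling to 0.441 with no filter. Foxn4, a gene of retinal progenitors, had means of 2.88 ± 0.761 and 1.91 ± 0.271 FPKM (SD, n = 3). It was lower within every replicate number and did not pass (limma adjusted p = 0.0619 with the block). Foxa3 had 1.81 ± 0.73 and 1.36 ± 0.237 FPKM, Foxj1, the switch for motile cilia, had 1.34 ± 0.725 and 1.13 ± 0.335 FPKM, and Foxq1 had 0.672 ± 0.147 and 0.535 ± 0.0495 FPKM. Foxr1 had 0.645 ± 0.203 and 0.556 ± 0.351 FPKM. In the other direction stood Foxc1, a mesodermal gene, with 0.696 ± 0.178 and 0.851 ± 0.159 FPKM, and Foxr2. Foxr2 had 0.724, 0.501 and 0.72 FPKM in untreated and 0.852, 1.02 and 1.78 FPKM in tamoxifen replicates 1, 2 and 3, with no overlap of the groups and a log2 difference of 0.77 (limma adjusted p = 0.999, and 0.0895 with the block).

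**Figure D3:**
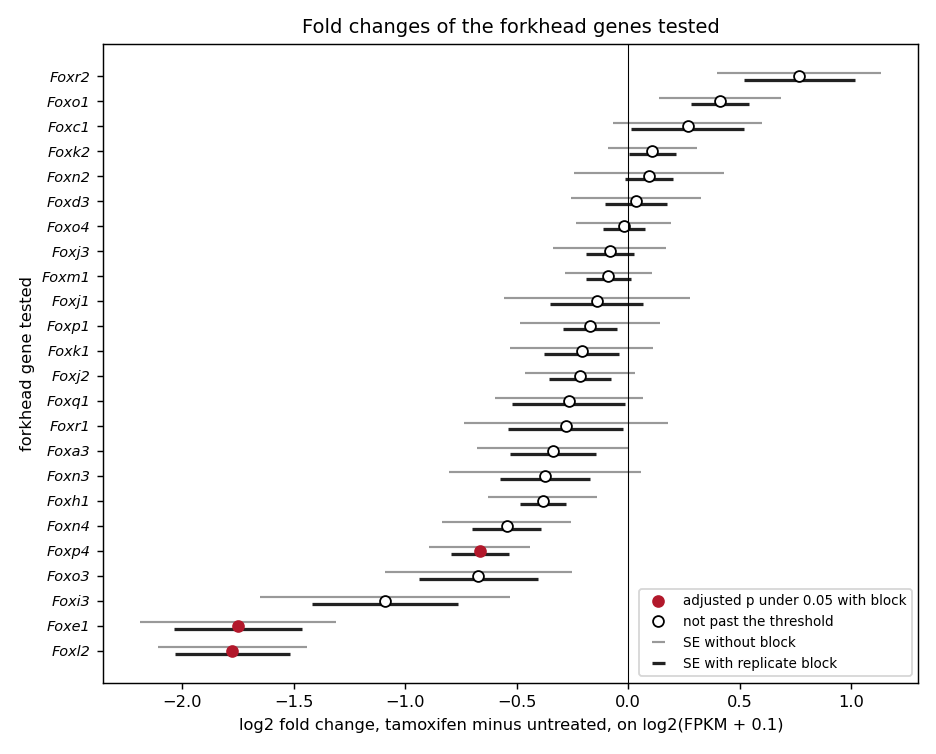
Log2 fold change of 24 of the forkhead genes tested, tamoxifen minus untreated on log2(FPKM + 0.1), from lowest to highest; grey bars are standard errors without the block and black bars with the replicate block, and filled points have a limma adjusted p under 0.05 with the block. The filled points are Foxl2 at −1.78, Foxe1 at −1.75 and Foxp4 at −0.67.

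Over the 25 members tested, 19 had a negative and 6 a positive log2 fold change, and the median was −0.22 against −0.02 over all genes, of which 52.8% were negative. In 11 members the tamoxifen sample was lower within all 3 replicate numbers, and in 2, Foxo1 and Foxr2, it was higher within all 3. The corresponding shares of all genes tested were 28.3% and 24.8%. The groups did not overlap for 3 members in the lower direction and 1 in the higher direction, where 5.41% and 3.09% of all genes showed this. Since Foxl2 and Foxe1 entered the list through the group in which they were high, these counts are descriptions. For a single gene an exact permutation test of 3 samples against 3 cannot give a p below 0.1.

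The 19 members below the filter were not tested with the filter in place, and low values carry the largest counting error. Among them Foxa1, a pioneer factor of endoderm, had 0.989, 0.66 and 0.371 FPKM in untreated and 0.14, 0.141 and 0.151 FPKM in tamoxifen replicates 1, 2 and 3. Its groups did not overlap, the untreated samples were spread widely and the tamoxifen samples were almost equal. In a fit of all gene names with no filter its log2 fold change was −1.58 (limma adjusted p = 0.566, and 0.231 with the block). Foxf1, a gene of lateral mesoderm and lung, had 0.465, 0.783 and 0.78 FPKM against 0.251, 0.151 and 0.33 FPKM, also without overlap (log2 fold change −1.18 with no filter, limma adjusted p = 0.738, and 0.271 with the block). Foxd1 and Foxl1, genes of kidney stroma and gut mesenchyme, were separate in the same direction, at 0.205 to 0.363 against 0.103 to 0.149 FPKM and at 0.147 to 0.262 against 0.0507 to 0.143 FPKM. Foxs1 was separate in the higher direction, at 0 to 0.0333 against 0.0379 to 0.154 FPKM. These are 4 and 1 of 19, where 3.03% and 2.93% of all genes below the filter were separate. Those shares are not matched for level, since many genes below the filter lie near 0 and can hardly separate. A mean of 0.00582 FPKM, that of Foxi2, was already above 21.7% of all gene names. The counts are therefore descriptions, and no excess is read from them. In the fit with no filter and the block 0 of 23180 genes passed in either direction, and so did 0 members.

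Foxa2, the other endodermal FOXA gene below the filter, had 0.115, 0.0803 and 0.351 FPKM in untreated and 0.0242, 0.0874 and 0 FPKM in tamoxifen replicates 1, 2 and 3, with groups that overlapped. Foxc2, Foxf2 and Foxd2 had means of 0.536, 0.509 and 0.266 FPKM in the untreated and 0.252, 0.331 and 0.147 FPKM in the tamoxifen samples. Foxd4, Foxb1, Foxb2 and Foxe3 reached at most 0.225, 0.121, 0.11 and 0.146 FPKM. Foxf1, Foxc2 and Foxl1 lie within 46259 bp on chromosome 8, and their summed FPKM was 1.07, 1.303 and 1.84 in untreated and 0.45, 0.523 and 0.831 in tamoxifen replicates 1, 2 and 3. The groups did not overlap for this sum, which is a description of genes named after their values were seen. Mthfsd, 9402 bp from Foxf1, had 5.73 ± 0.997 and 5.70 ± 1.43 FPKM (SD, n = 3).

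Within 50000 bp of a member lay 91 other gene names, near 36 members, and 55 of them were tested. With the block 4 were higher and 3 lower in the tamoxifen samples, where 4.5% and 6.33% of all genes were called, and their median log2 fold change was 0.02. Named after their values were seen, the 3 lower ones were Foxl2os beside Foxl2, Ap5z1 beside Foxk1 and Syp near Foxp3, and the 4 higher ones were Rragb beside Foxr2, Aldoc and Unc119 near Foxn1, and Btf3 near Foxd1. Among these, Foxl2os passed the filter only through the untreated group. Rragb, which encodes a GTPase of the amino acid sensing pathway, had 10.6, 7.401 and 9.92 FPKM in untreated and 15.04, 13.05 and 16.5 FPKM in tamoxifen replicates 1, 2 and 3, without overlap (limma adjusted p = 0.735, and 0.0124 with the block). Without replicate 2, 0 of the 7 neighbours were called, without replicate 1 all but Btf3, and without replicate 3 the 4 genes Aldoc, Foxl2os, Rragb and Syp. Foxm1 overlaps 4933413G19Rik, which was listed at 0 in every sample, and the remaining members past the filter overlap no other locus among the gene names used. Names dropped for their status were not searched.

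Much of the spread within the groups followed the replicate number. In 8 of the 25 members tested, among them Foxd3, Foxj3, Foxk1, Foxm1, Foxn2, Foxn3 and Foxp1, replicate 1 was the lowest of both groups. In 5 others, Foxa3, Foxj1, Foxn4, Foxp4 and Foxr1, it was the highest of both. All genes showed these patterns in 25.2% and 31.6%. Foxn2 is an example of the first kind, with 7.24 and 7.15 FPKM in the 2 samples of replicate 1, 9.51 and 11.2 FPKM in those of replicate 2 and 14.04 and 14.6 FPKM in those of replicate 3. Foxj1 is an example of the second, with 2.16 and 1.45 FPKM in replicate 1 and 0.784 to 1.17 FPKM in the other samples. The summed FPKM of the feeder fibroblast markers moved along the same axis. Over 12 genes it was 39.8 and 48.5 in replicate 1 and 79.8 to 106.4 in replicates 2 and 3, with 39.8 to 106.4 in the untreated and 48.5 to 103.1 in the tamoxifen samples. Of these markers Col1a1, Col1a2 and Dcn were well detected, Lum and Tbx5 stayed under 0.5 FPKM in every sample, and 0 of the 10 tested were called with the block. Their part in the replicate pattern was not tested. Fewer cells of a type and less RNA per cell cannot be told apart in bulk samples.

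**Figure D4:**
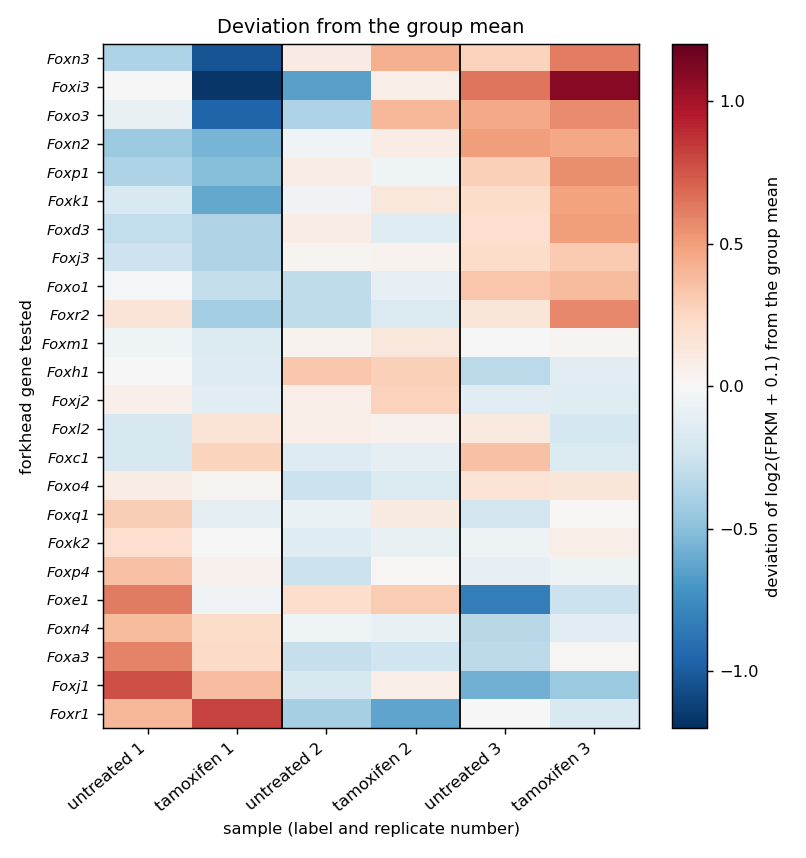
Deviation of log2(FPKM + 0.1) from the mean of its group for 24 of the forkhead genes tested in each sample, with samples of the same replicate number side by side and genes ordered by their deviation in replicate 1; blue is below and red above the group mean. Samples of a number share colours for most genes, with Foxn3 lowest in replicate 1 and Foxj1 and Foxr1 highest.

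Genes known to work with forkhead proteins were counted from the same fits, and 0 genes of the 6 lists passed without the block. With it 13 did, where 4.5% of all genes were called higher and 6.33% lower. Without replicate 2 only Col4a1, Dppa3 and Lefty2 of the 13 were called, without replicate 1 all but Cenpa and Gata4, and without replicate 3 all but Cenpa and Eomes. In the Nodal list around FOXH1, 13 of 16 genes were tested, and with the block 1 was higher and 2 lower, with a median log2 fold change of −0.14, which turned to 0.05 without tamoxifen replicate 1 and to 0.03 in the block fit without replicate 1. The higher gene was Lefty2, a Nodal antagonist, at 86.2 ± 64.1 and 125.2 ± 64.2 FPKM (SD, n = 3; log2 fold change 0.67, limma adjusted p = 0.0189 with the block). The lower genes were Nodal itself, at 43.9 ± 17.1 and 27.96 ± 9.198 FPKM (log2 fold change −0.63, limma adjusted p = 0.0124 with the block), and Eomes, a T-box factor of mesendoderm, at 3.04 ± 0.912 and 1.78 ± 0.247 FPKM (log2 fold change −0.70, limma adjusted p = 0.0361 with the block). In the endoderm list around FOXA, 6 of 14 genes were tested, and with the block 3 were lower and 0 higher, with a median of −0.64. That median was −0.39 at a pseudocount of 1 and −0.09 over the genes with at least 1 FPKM in all 6 samples, and leaving out samples gave −0.83 to −0.38. The lower genes of this list were Gata6, at 1.13 ± 0.581 and 0.328 ± 0.0981 FPKM, Gata4, at 1.92 ± 0.579 and 0.998 ± 0.148 FPKM, both factors of primitive endoderm, and Col4a1, a basement membrane collagen, at 38.97 ± 18.9 and 19.5 ± 8.91 FPKM (log2 fold changes −1.43, −0.85 and −0.97, limma adjusted p = 0.0163, 0.0344 and 0.00296 with the block). Gata6 was under 0.5 FPKM in every tamoxifen sample and passed the filter only through the untreated group, so its place in the count and median is a description. The summed FPKM of the 5 markers of primitive endoderm was 5.16 to 7.76 in the untreated and 4.23 to 6.90 in the tamoxifen samples, with Sox17 and Sox7 under 0.5 FPKM in every sample. The remaining marker that was tested, Dab2, went the other way, at 2.84 ± 0.74 and 3.42 ± 1.22 FPKM (log2 fold change 0.23, limma adjusted p = 0.304 with the block). Gata4 and Gata6 are also among these 5 markers, and their part in the values of Foxa1 and Foxa2 was not tested.

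In the pluripotency list around FOXD3 all 18 genes were tested, and with the block 3 were higher and 0 lower, with a median of 0.20. Without untreated replicate 2 the medians of this list and of the FOXM1 and FOXK lists turned to −0.0046, −0.03 and −0.03. Dppa3, a maternal factor marking naive cells, had 29.8 ± 13.97 and 79.8 ± 45.6 FPKM (SD, n = 3), and the naive regulators Prdm14 and Klf2 had 2.58 ± 0.323 and 5.21 ± 0.851 FPKM and 67.1 ± 7.701 and 105.5 ± 26.2 FPKM (log2 fold changes 1.37, 0.98 and 0.63, limma adjusted p = 0.00154, 0.00962 and 0.0298 with the block). In the FOXO list all 24 genes were tested, with a median of −0.15. With the block 1 was higher, Sod2, the mitochondrial superoxide dismutase, at 24.9 ± 4.22 and 34.8 ± 2.98 FPKM, and 1 lower, Txnip, an inhibitor of thioredoxin and of glucose uptake, at 61.6 ± 19.4 and 42.9 ± 9.19 FPKM (log2 fold changes 0.49 and −0.50, limma adjusted p = 0.0221 and 0.0218 with the block). Bcl2l11, a death gene and FOXO target, had a log2 fold change of −0.29 (limma adjusted p = 0.12 with the block). In the FOXM1 list all 21 genes of the late cell cycle were tested, with a median of 0.15, and with the block 1 was higher, the centromere histone gene Cenpa (88.6 ± 29.2 and 117.3 ± 45.9 FPKM, limma adjusted p = 0.0363). Mybl2 and Skp2 came next, with limma adjusted p = 0.0887 and 0.0839 with the block and log2 fold changes of 0.35 and 0.31. In the list of FOXK partners all 13 genes were tested, with a median of 0.16, and with the block 1 was higher, Sin3b, a corepressor scaffold (105.5 ± 23.5 and 160.02 ± 70.2 FPKM, limma adjusted p = 0.0355). The histone deacetylase gene Hdac2 and Sap30 had log2 fold changes of 0.29 and 0.31 and did not pass (limma adjusted p = 0.0772 and 0.104 with the block).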

How the data were processed

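RNA-seq was analysed in 3 samples labelled untreated and 3 labelled as treated. The other 17 samples of the series were not analysed here. The authors aligned paired-end reads to mm9 with Tophat2 and ran Cuffdiff 2.1.1 on refGene models, and the values they deposited are FPKM per gene row, with an interval and a status for each. The forkhead genes, gene lists and tests were chosen with earlier results of these data known. Rows sharing a gene name were summed. Of 23369 names, 189 with a status other than OK in any of the samples were dropped. Values were transformed to log2(FPKM + 0.1) and fitted with limma 3.58.1 in R 4.3.3 (eBayes with a trend), without a block and with replicate number blocked. The number pairs the samples because deviations from group means correlated at 0.505 to 0.613 in each same-numbered pair, above the limit of 0.1. Nothing states a shared passage or day, and p-values measure the spread between these samples. All forkhead genes were eligible for naming except 1 that passed the filter, which enters the counts and is otherwise not reported here, with 3 genes per companion list by smallest p in the block fit. The fits were run on simulated data with known changes, an additive replicate effect and independent noise. That simulation assumes the replicate block and so cannot check it. Locus starts, counted from 0 in refGene tables, are given from 1, and strands are from GENCODE vM1. Alternatives covered scaling, pseudocount, filter, trend, status and left-out samples. Python 3.11.15 was used.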

Additional observations from a re-analysis of the deposited data

How the results depend on the processing

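The forkhead calls depended on the replicate block and on replicate 2. Without the block, the counts of all genes higher and lower were 3 and 1. They became 0 and 0 with at least 1 FPKM required in all 6 samples, 1 and 0 with no filter, 2 and 0 at a pseudocount of 1 and 3 and 2 without a trend, while 0 forkhead genes passed in each. With the replicate block they were 583 and 820, with 3 forkhead genes lower. Within the block fit, quantile normalisation gave 580 and 604, with 1 forkhead gene higher (Foxo1) and 3 lower. TPM gave 468 and 355 with 3 lower (Foxl2, Foxe1 and Foxi3), TPM without loci under 300 bp gave 426 and 1212 with 6 lower, a pseudocount of 1 gave 673 and 962 with 6 lower (in both cases with Foxh1, Foxi3 and Foxn4 added), and a pseudocount of 0.01 gave 528 and 729 with 3 lower. No trend gave 341 and 604 with 2 lower. Of 2 alternatives chosen after seeing the data, leaving out only the status FAIL gave 563 and 787 with 3 lower, and no filter gave 0 and 0 with 0. Leaving out 1 sample without the block gave 2 to 5 genes higher and 0 to 7 lower, with 0 forkhead genes. Leaving out a replicate number in the block fit gave 0 to 2 forkhead genes higher and 0 to 4 lower, and over all genes 800 and 1080 without replicate 1, 38 and 49 without replicate 2 and 377 and 513 without replicate 3. The block values stand beside Foxl2, Foxe1 and Foxp4, and the block changed no other forkhead call.

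The median over all genes was −0.02 and shifted to 0.08 under TPM and to −0.10 under TPM computed without loci under 300 bp. TPM divides every gene of a sample by the same number, the summed FPKM of the genes used. Over all rows this sum ran from 549379 in untreated replicate 1 to 1045707 in untreated replicate 2. Loci under 300 bp held 23.9% of it in untreated replicate 1 and 67.7% in untreated replicate 2. Signs of small differences turned. On the log2 scale Foxj3 was 0.0205, Foxm1 0.0149 and Foxo4 0.0838 under TPM, and Foxd3 was −0.0515 under TPM without short loci, with and without the block. Leaving out 1 sample without the block gave ranges of −0.218 to 0.214 for Foxd3, −0.428 to 0.244 for Foxj1, −0.24 to 0.0964 for Foxj3, −0.448 to 0.100 for Foxk1, −0.14 to 0.369 for Foxn2, −0.679 to 0.145 for Foxn3, −0.148 to 0.0665 for Foxo4, −0.45 to 0.0865 for Foxp1 and −0.688 to 0.0342 for Foxr1. Leaving out a replicate number in the block fit gave −0.117 to 0.149 for Foxd3, −0.277 to 0.0602 for Foxj1, −0.338 to 0.0101 for Foxk1 and −0.0609 to 0.0123 for Foxo4. Why signs turned when samples were left out was not tested. The tables hold no counts, so depth limits the low members most and no counting interval was computed.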
